A study of Mus musculus with 4 samples.

Results

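Regulatory T cells of the spleen (Treg), which express the factor Foxp3 and restrain immune responses, were profiled by RNA sequencing, and 54 genes of mitosis, the kinetochore and the spindle were followed through the data. The members were taken by symbol from a fixed list, and 54 of 54 were found among the 20837 genes of the count table. The 2 libraries of the cKO group carried the genotype Foxp3YFP-CreKmt2dfl/fl, and the 2 of the WT group carried Foxp3YFP-CreKmt2d+/+. Both groups therefore bear the Foxp3YFP-Cre allele, whose Cre acts in cells that express Foxp3. Their genotype labels differ only in the loxP-flanked allele of Kmt2d, a histone H3 lysine 4 methyltransferase gene. The labels' sample fields give no age, sex or treatment, and they do not say whether separate mice stand behind a group's libraries, so the spread that p-values rest on may be technical. The labels' extraction text speaks of cultured macrophages from another knockout, against the tissue, cell type and genotype fields, which were followed here.

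A dividing cell copies its chromosomes, condenses them, attaches each sister pair to spindle microtubules through the kinetochore, and separates them once every pair is attached. Most genes for this work are silent in resting lymphocytes and are transcribed together late in the cell cycle, under the B-Myb, MuvB and FoxM1 factors, so their messages mark dividing cells. Treg cells divide in the steady state and more so after stimulation. In bulk RNA, more dividing cells in a sample and more of these messages per dividing cell cannot be told apart.

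Total counts ran from 28442416 to 35560491 per library, and 13861 genes passed the filter on low counts, among them 54 of 54 members. The lowest count of any member in any library was 64. Levels are CPM, counts divided by the TMM-scaled library size, on which 1 read was worth 0.0344 and 0.0290 in cKO and 0.0288 and 0.0328 in WT. Transcripts of Kmt2d stood at 836 and 793 CPM in the cKO libraries, against 721 and 704 CPM in the WT libraries. This count covers the whole gene, exons outside the deleted part included, so it does not check the labels. Foxp3 stood at 170 and 180 CPM in the cKO libraries, against 278 and 250 CPM in the WT libraries. The T cell gene Cd3e lay between 367 and 404 CPM in all 4 libraries, and the macrophage receptor gene Csf1r between 84.1 and 151 CPM. Cd3e belongs to a list of 14 pan T cell genes. By the test described below, 10 of these were called lower in cKO, 0 higher, and 4, Cd3e included, did not pass. Cd4, among the lower, had 645 and 670 CPM in the cKO libraries, against 841 and 802 CPM in the WT libraries.

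The mitosis genes were more abundant in cKO Treg libraries. Of the 54 members, 52 rose, 1 fell (the condensin gene Smc4) and 1 did not pass (the centromeric histone gene Cenpa), by edgeR's quasi-likelihood test with adjustment over all tested genes and a threshold of 0.05. Among all tested genes the same test called 16.5% higher and 15.1% lower. The median log2 fold change of the members was 0.88, beside 0.0003 for all tested genes, and the quartiles of the members were 0.79 and 0.98, beside -0.17 and 0.21. The rises ran from 0.27 (Bub3) to 1.16 (Spc25) on the log2 scale, with adjusted p between 0.00412 and 0.0234. Of the members, 42 lay between 0.75 and 1.1, and 9 had risen at least 2-fold. A rise of at least 1.5-fold was called for 49 members and for 8.9% of all tested genes.

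Each member's level was compared between libraries as well as between groups. For 52 members both cKO libraries lay above both WT libraries, which held for 35.1% of all tested genes, and with Smc4 53 members did not overlap between the groups in either direction, as did 66% of all tested genes. The libraries of a group also differed in 1 direction. Of the members, 51 of 54 were higher in cKO 1 than in cKO 2, with a median difference of 0.11 on the log2 scale, and 52 of 54 were higher in WT 2 than in WT 1, with a median difference of 0.30. Over all tested genes these medians were 0.0012 and 0.016. The gap between the lower cKO library and the higher WT library had a median of 0.70 over the members that rose.

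**Figure D1:**
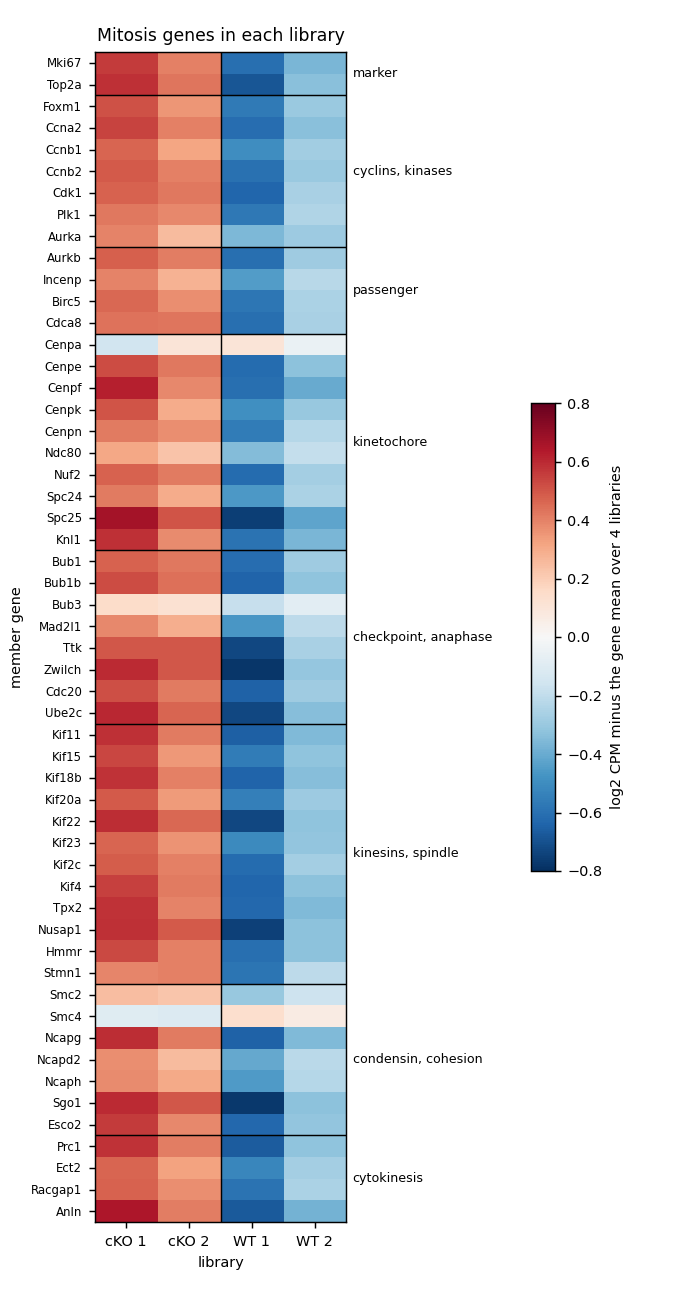
Level of each of the 54 members (rows, grouped by role) in each library (columns), as log2 CPM minus the gene's mean over the 4 libraries. Red is above and blue below that mean. For 52 members both cKO columns are above both WT columns, and Smc4 shows the reverse, with cKO 1 the reddest and WT 1 the bluest column for most rows.

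Because the members moved together, their promoters were searched for the elements known from this gene class, the cell cycle genes homology region (TTTGAA or TTCGAA), the NF-Y box (CCAAT) and an E2F site (TTTCGCGC or TTTGGCGC), each on both strands. TTCGAA reads the same on both strands, and no motif of the search contains another. RefSeq promoter sequences of the build GRCm38.p6 were matched by symbol for 43 of 54 members. No sequence was used for Foxm1, Ccna2, Aurkb, Incenp, Spc24, Zwilch, Kif20a, Tpx2, Stmn1, Smc4 and Esco2.

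Below are the 120 bases before the RefSeq start of 7 members, 5' to 3' on the gene's strand, with matches to the homology region and the NF-Y box on either strand in capitals. Top2a, Kif11, Cdk1 and Cdc20 are shown because they hold both elements in the stretch. Ccnb2 and Spc25 hold CCAAT in the stretch and TTTGAA just after the start, at positions 5 and 25 counted from 1 at the start, and Ccnb2 holds it also at -167. Smc2 is shown as a member with a small change, and its TTTGAA matches, at -145 and 27, lie outside the stretch. Bub3, which is not shown, rose less than Smc2 (0.27 against 0.47). It holds both elements within 120 bases before a RefSeq start, TTTGAA on the other strand at -43 and CCAAT at -74 and -32. Whether the elements go with the size of the change was not tested. The stretches are chr11:99024190-99024309 (minus strand) for Top2a, chr19:37376262-37376381 (plus) for Kif11, chr10:69352913-69353032 (minus) for Cdk1, chr4:118437344-118437463 (minus) for Cdc20, chr9:70421555-70421674 (minus) for Ccnb2, chr2:69206214-69206333 (minus) for Spc25 and chr4:52439101-52439220 (plus) for Smc2.
Top2a: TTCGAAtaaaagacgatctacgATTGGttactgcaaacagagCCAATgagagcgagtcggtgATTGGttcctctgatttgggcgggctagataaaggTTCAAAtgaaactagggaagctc
Kif11: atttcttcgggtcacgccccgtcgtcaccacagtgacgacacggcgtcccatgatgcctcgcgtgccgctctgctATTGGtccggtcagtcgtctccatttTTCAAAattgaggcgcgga
Cdk1: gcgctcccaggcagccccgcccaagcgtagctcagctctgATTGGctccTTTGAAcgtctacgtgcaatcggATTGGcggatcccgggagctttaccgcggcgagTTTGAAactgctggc
Cdc20: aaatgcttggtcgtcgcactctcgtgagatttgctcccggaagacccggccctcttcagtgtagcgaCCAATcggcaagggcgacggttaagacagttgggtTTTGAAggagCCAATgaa
Ccnb2: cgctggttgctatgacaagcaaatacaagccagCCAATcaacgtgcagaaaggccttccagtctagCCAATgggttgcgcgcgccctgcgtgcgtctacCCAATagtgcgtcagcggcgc
Spc25: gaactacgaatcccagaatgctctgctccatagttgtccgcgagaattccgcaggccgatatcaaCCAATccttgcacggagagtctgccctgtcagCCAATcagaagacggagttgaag
Smc2: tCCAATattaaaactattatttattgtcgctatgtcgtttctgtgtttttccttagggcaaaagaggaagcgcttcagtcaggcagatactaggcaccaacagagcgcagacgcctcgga

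Within 250 bases before the start, TTTGAA or TTCGAA stood in 18 of 43 members (41.9%), against 15.4% of the 10854 tested genes with a sequence and 17.1% of all 32851 promoters. When the 50 bases after the start were added, a window chosen after the values were seen, it stood in 35 of 43 members (81.4%), against 17.2% of tested genes and 19.2% of all promoters. CCAAT stood in 32 of 43 members (74.4%) before the start, against 40.3% of tested genes and 33.8% of all promoters. The E2F letters stood in 3 members (7.0%), which were Cdk1, Kif15 and Ncapd2, against 1.4% of tested genes and 0.7% of all promoters. Cenpa, which did not pass the test, holds TTTGAA at position 17 after the start and CCAAT, read on the other strand, at -109 and -86. A match is a run of letters in a window and not a measured binding site.

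Mki67 and Top2a, the markers most used to count dividing cells, were both higher in cKO. Mki67 (chr7:135689784-135716361, GENCODE M21 on GRCm38), which encodes the Ki-67 protein that coats mitotic chromosomes, had 375 and 336 CPM in the cKO libraries, against 167 and 198 CPM in the WT libraries. Both cKO libraries were well above both WT libraries, with a log2 fold change of 0.96 (SE 0.10, adjusted p = 0.00412). Top2a (chr11:98992943-99024189), the topoisomerase that untangles sister chromatids, had 320 and 288 CPM in the cKO libraries, against 133 and 169 CPM in the WT libraries. Its log2 fold change was 1.01 (SE 0.12, adjusted p = 0.00512), and the groups did not overlap.

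All 7 genes of mitotic cyclins, kinases and their transcription factor rose, by 0.65 to 0.93 on the log2 scale with a median of 0.85. Ccna2, the cyclin of S phase and early mitosis, had 71.5 and 65.0 CPM in the cKO libraries, against 32.3 and 39.1 CPM in the WT libraries (log2 fold change 0.93, SE 0.10). Cdk1, the kinase that cyclins A and B activate to start mitosis, had 27.1 and 26.2 CPM in the cKO libraries, against 12.6 and 16.3 CPM in the WT libraries (log2 fold change 0.88, SE 0.13). The cyclin B genes Ccnb1 and Ccnb2 rose by 0.78 (SE 0.10) and 0.89 (SE 0.11). Foxm1, a transcription factor that drives many of these genes, had 37.5 and 33.7 CPM in the cKO libraries, against 17.9 and 21.5 CPM in the WT libraries (log2 fold change 0.85, SE 0.11). Plk1, a kinase of centrosome maturation and mitotic entry, rose by 0.80, and the spindle pole kinase gene Aurka by 0.65, the least of the 7 genes. Within each group the libraries of these genes were closer to each other than to any library of the other group.

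The 4 genes of the chromosomal passenger complex, which corrects faulty microtubule attachments and later steers cytokinesis, rose together. Aurkb, its kinase, had 25.5 and 24.4 CPM in the cKO libraries, against 12.1 and 15.1 CPM in the WT libraries (log2 fold change 0.88, SE 0.12). The targeting subunit genes Cdca8 (borealin) and Birc5 (survivin) rose by 0.85 and 0.83, with SE 0.12 for both. The scaffold gene Incenp, the most abundant of the 4 per length of exon, rose by 0.67 (SE 0.09).

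Of 10 genes of the centromere and kinetochore, 9 rose and Cenpa did not pass. Spc25 (chr2:69193895-69206194), a subunit of the Ndc80 complex that grips microtubules, had 11.9 and 10.6 CPM in the cKO libraries, against 4.44 and 5.58 CPM in the WT libraries. The log2 fold change of 1.16 (SE 0.15, adjusted p = 0.00549) was the highest of the 54 members. The other genes of that 4-subunit complex, Nuf2, Spc24 and Ndc80, rose by 0.88, 0.71 and 0.54, with SE 0.13, 0.12 and 0.09. Whether subunits of the complex differ from each other was not tested.

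Further out on the kinetochore, Cenpf rose by 1.01 (SE 0.11), Knl1, the platform for checkpoint proteins, by 0.96 (SE 0.12), and the kinesin gene Cenpe, which moves chromosomes to the spindle equator, by 0.93 (SE 0.10). The inner kinetochore genes Cenpk and Cenpn rose by 0.80 (SE 0.18) and 0.78 (SE 0.16). They are the least abundant members of this role, at 3.68 and 3.19 CPM for Cenpk in the cKO libraries, against 1.84 and 2.10 CPM in the WT libraries. The call of Cenpk ended when any 1 library was left out (adjusted p 0.0576 to 0.129) and with DESeq2 (adjusted p = 0.162). That of Cenpn ended without WT 1 (adjusted p = 0.0676) and without cKO 1 (0.0607).

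Cenpa (chr5:30666777-30674830) encodes the histone H3 variant that marks the centromere. It had 49.3 and 59.1 CPM in the cKO libraries, against 59.0 and 52.9 CPM in the WT libraries. The groups overlapped, and the log2 fold change was -0.05 (SE 0.10, adjusted p = 0.802). Cenpa was also the only member with both cKO 2 above cKO 1 and WT 1 above WT 2. Ttk and Stmn1 shared the former by a small margin, and Smc4 shared the latter. The sign of Cenpa was positive without WT 1 (0.04) and without cKO 1 (0.07). With scaling to counts of pan T cell genes its log2 fold change turned to 0.25 (adjusted p = 0.0470). That scaling moved the median of all tested genes to 0.30.

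All 8 genes of the spindle checkpoint and anaphase promotion rose, with a median log2 fold change of 0.94. Ube2c, the conjugating enzyme of the anaphase promoting complex, had 45.7 and 41.4 CPM in the cKO libraries, against 18.1 and 23.7 CPM in the WT libraries (log2 fold change 1.06, SE 0.13). Cdc20, the activator of that complex which the checkpoint holds back, had 35.4 and 33.0 CPM in the cKO libraries, against 15.8 and 20.3 CPM in the WT libraries (log2 fold change 0.93, SE 0.13). Both cKO libraries exceeded both WT libraries for either gene. Among the checkpoint genes, Zwilch rose by 1.08 (SE 0.17), the kinase gene Ttk (Mps1) by 0.98 (SE 0.18), Bub1b (BubR1) by 0.95 (SE 0.11), Bub1 by 0.89 (SE 0.12) and Mad2l1 by 0.67 (SE 0.10).

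Bub3, the partner of Bub1 and BubR1, was the exception in size. It had 96.5 and 94.8 CPM in the cKO libraries, against 76.8 and 82.1 CPM in the WT libraries. The groups did not overlap, but the log2 fold change of 0.27 (SE 0.06, adjusted p = 0.0170) was the smallest rise among the members. The call ended without WT 1 (adjusted p = 0.0843), cKO 1 (0.0879) or cKO 2 (0.0617).

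All 12 genes of kinesins and spindle microtubules rose, by 0.79 to 1.06 with a median of 0.94. Kif11 (Eg5), the motor that pushes spindle poles apart, had 97.0 and 86.2 CPM in the cKO libraries, against 41.1 and 50.6 CPM in the WT libraries (log2 fold change 1.00, SE 0.11). Nusap1, which bundles spindle microtubules at chromatin, had 42.3 and 39.7 CPM in the cKO libraries, against 16.8 and 22.5 CPM in the WT libraries (log2 fold change 1.06, SE 0.14). Both showed the common library order, with cKO 1 highest and WT 1 lowest. The chromosome arm motor genes Kif22 and Kif4 rose by 1.04 and 0.96, the microtubule-depolymerising kinesin genes Kif18b and Kif2c by 0.98 and 0.88, and Kif15, which assists Eg5, by 0.88. Kif20a and Kif23, motors of the central spindle, rose by 0.83 and 0.82. Tpx2, which activates Aurora A on the spindle, rose by 0.97, and Hmmr by 0.93. Stmn1, which destabilises microtubules and is also found outside mitosis, had 82.1 and 83.1 CPM in the cKO libraries, against 41.8 and 54.2 CPM in the WT libraries (log2 fold change 0.79, SE 0.12).

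The condensin and cohesion genes had the widest range of the 8 roles, with 6 of 7 higher and Smc4 lower. Among the condensin I subunits, Ncapg had 30.6 and 27.1 CPM in the cKO libraries, against 13.0 and 15.9 CPM in the WT libraries (log2 fold change 1.00, SE 0.12). Ncaph and Ncapd2 rose by 0.68 (SE 0.09) and 0.62 (SE 0.08), and the ATPase gene Smc2 by 0.47 (SE 0.06), with 86.5 and 85.1 CPM in the cKO libraries, against 59.1 and 65.0 CPM in the WT libraries. Smc2 did not overlap between the groups, although its change was among the smallest of the members. Sgo1, which protects centromeric cohesion, rose by 1.08 (SE 0.16), and Esco2, the acetyltransferase that locks cohesin in S phase, by 0.94 (SE 0.14).

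Smc4 (chr3:69004738-69034623), the partner ATPase of Smc2, had 845 and 838 CPM in the cKO libraries, against 991 and 944 CPM in the WT libraries. The cKO values were the lower pair without overlap, with a log2 fold change of -0.20 (SE 0.05, adjusted p = 0.0299). The call rested on each library, since it ended without WT 1 (adjusted p = 0.137), WT 2 (0.0542), cKO 1 (0.130) or cKO 2 (0.160), and with scaling to pan T cell counts the value turned to 0.10 (adjusted p = 0.251), where the median of all tested genes was 0.30. Per kilobase of merged exons Smc4 stood at 162 CPM in cKO and 186 CPM in WT. Its partner Smc2 stood at 15.7 CPM per kilobase in cKO and 11.3 in WT, and Ncapg at 4.09 in cKO and 2.05 in WT. Smc4 alone made up 24.7% of the members' summed CPM in cKO and 40.0% in WT, so that the sum over members moved less than its parts. That sum was 3506 and 3299.6 CPM in the cKO libraries, against 2317 and 2523 CPM in the WT libraries, and without Smc4 it was 2661 and 2462 CPM in the cKO libraries, against 1326 and 1578.5 CPM in the WT libraries.

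The 4 cytokinesis genes rose. Prc1, which bundles the antiparallel microtubules of the central spindle, had 45.2 and 40.1 CPM in the cKO libraries, against 19.0 and 24.2 CPM in the WT libraries (log2 fold change 0.98, SE 0.13). Anln, the anillin of the contractile ring, rose by 1.05 (SE 0.16), Racgap1, the centralspindlin partner of Kif23, by 0.84 (SE 0.11), and Ect2, the exchange factor that turns on RhoA at the division plane, by 0.79 (SE 0.11).

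**Figure D2:**
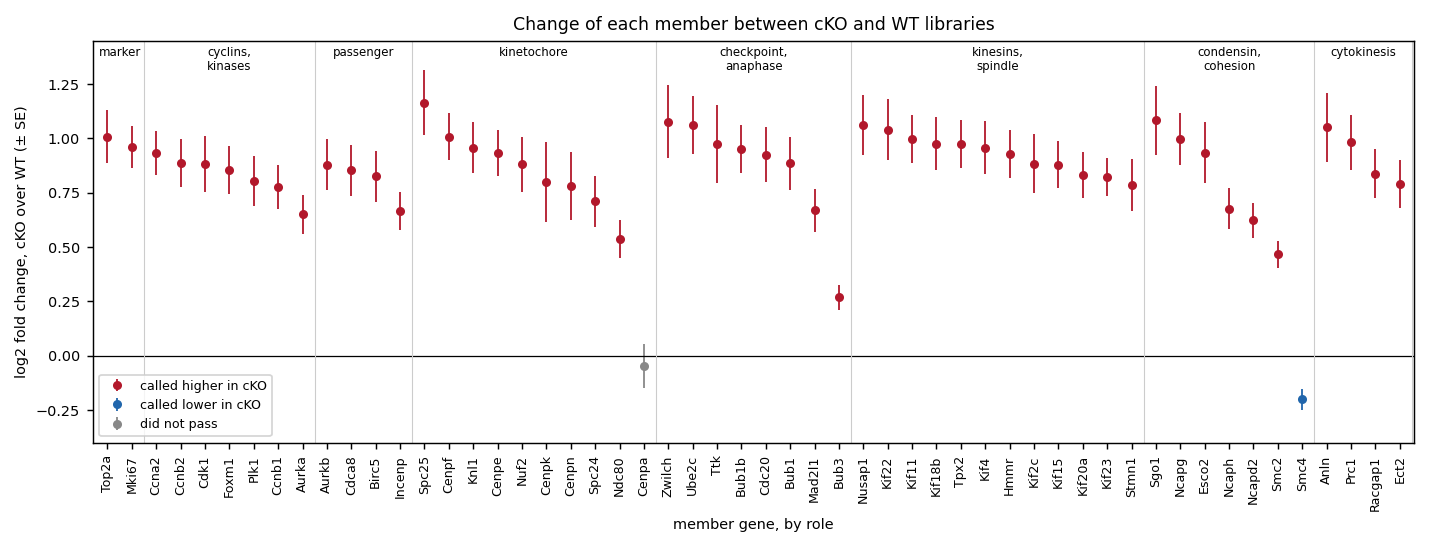
Log2 fold change of cKO over WT for each member (points) with its standard error (bars), grouped by role and ordered by size within each. Of the 54 points, 52 are called higher, from 0.27 (Bub3) to 1.16 (Spc25), while Cenpa at -0.05 did not pass and Smc4 at -0.20 was called lower, a call that ended when any library was left out and a sign that turned only with pan T cell scaling.

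The members differ widely in abundance. Per kilobase of merged exons the mean WT level ran from 0.377 CPM (Cenpk) to 186 CPM (Smc4), with a median of 6.05 CPM per kilobase in cKO and 3.23 in WT. After Smc4, the most abundant per kilobase in WT were Stmn1 (43.0 in cKO and 25.0 in WT), Mki67 (35.3 in cKO and 18.1 in WT) and Top2a (33.7 in cKO and 16.8 in WT). Whether the neighbours Mki67 and Top2a in that order differ in level was not tested. The 4 members with the least positive changes, Smc4, Cenpa, Bub3 and Smc2, all ranked among the 11 highest WT levels per kilobase, a cutoff set by the rank of Cenpa. Over the 54 members, which share the libraries, the Spearman correlation of WT level per kilobase with log2 fold change was -0.33, given as a description. The WT level is also the denominator of the fold change, so noise in WT alone can make this correlation negative.

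**Figure D3:**
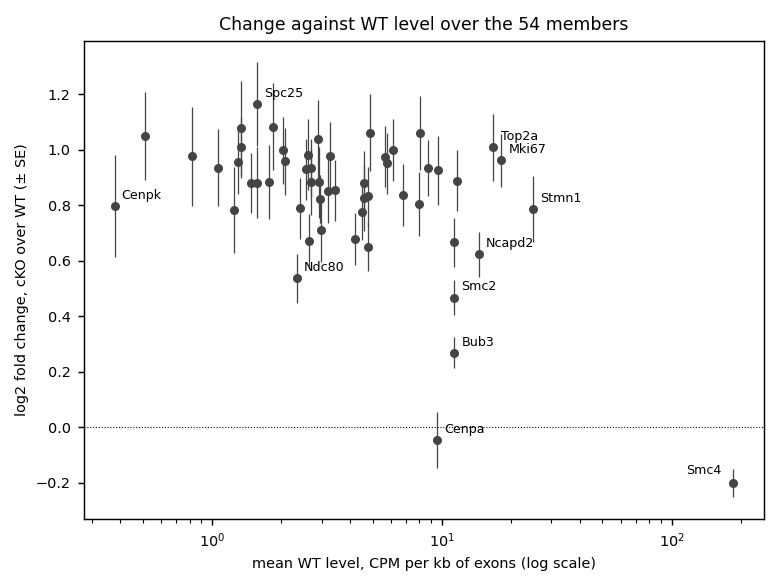
Log2 fold change of cKO over WT (vertical, bars are standard errors) against the mean WT level in CPM per kilobase of merged exons (horizontal, log scale) for the 54 members. Of the 54 points 42 lie between 0.75 and 1.1 and 11 lie below, the lowest being Smc2, Bub3, Cenpa and Smc4, with Smc4 far to the right at 186 CPM per kilobase. Of the 11 members with the highest WT level 5 lie between 0.75 and 1.1.

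It is not stated whether the counting used strand, so where exons of opposite genes overlap, their reads cannot be separated. In the GENCODE models more than 10% of the merged exon length was shared with an opposite gene for 6 members. They are Kif20a (29.3% with Cdc23), Ube2c (22.8% with Tnnc2), Kif4 (15.1% with Pdzd11), Ncapg (13.4% with Lcorl), Ccna2 (12.5% with Exosc9) and Prc1 (11.1% with Rccd1). Of these partners Cdc23 rose by 0.18, Tnnc2 was too low to test, and the others had log2 fold changes of 0.07 to 0.14 and did not pass. Smc4 and Cenpa share no exon with another annotated gene there.

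Beyond the members, other genes of mitosis were mostly higher as well. Of 71 further mitosis genes tested, 57 rose, 1 fell and 13 did not pass, with a median log2 fold change of 0.69. Among those with the smallest p, Aspm, a spindle pole protein gene, rose by 0.90, Ncapg2, a condensin II subunit gene, by 0.60, Ckap2l by 0.86 and Depdc1a by 1.28. The 1 that fell was Pttg1, the securin that restrains separase, with 30.2 and 32.3 CPM in the cKO libraries, against 36.4 and 36.9 CPM in the WT libraries. Its log2 fold change was -0.23 (adjusted p = 0.0383), and the call ended when any 1 library was left out (adjusted p 0.0805 to 0.198). With scaling to pan T cell counts it turned to 0.06 (adjusted p = 0.567).

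Partners of the mitotic machinery that also act outside mitosis formed separate lists. Of 11 genes of the cohesin ring and its loaders and releasers, edgeR, DESeq2 and limma-voom each called 0, and 1 (Esco1) had an unadjusted edgeR p under 0.05. Their median log2 fold change was 0.01. With scaling to pan T cell counts, which moved the median of all tested genes to 0.30, 8 of the 11 were called higher. Of 19 anaphase promoting complex subunits and regulators, 6 rose and 13 did not pass, with a median of 0.17. Fbxo5 (Emi1), an inhibitor of the complex, rose by 0.73 (SE 0.11), with 22.0 and 20.3 CPM in the cKO libraries, against 11.6 and 13.9 CPM in the WT libraries. The core subunit genes Anapc5, Cdc16 and Anapc16 and the activator gene Fzr1 (Cdh1) rose by 0.27, 0.26, 0.19 and 0.21, and Cdc23 by 0.18, and the call of each of these 5 ended without at least WT 1 (adjusted p 0.0547 to 0.160). DESeq2 called 2 of the 19 higher, pan T cell scaling 15, and leaving out 1 library gave 1 (without WT 1 or cKO 2) or 2 (without WT 2 or cKO 1). The 6 calls are 31.6% of the 19, beside 16.5% of all tested genes called higher.

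Among 22 transcriptional regulators of the cell cycle, 6 rose, 1 fell and 15 did not pass, with a median of 0.06, and pan T cell scaling called 16 higher. The 6 that rose are 27.3% of the 22, beside 16.5% of all tested genes called higher. The E2F genes E2f2, E2f8, E2f7 and E2f1 rose by 0.98, 0.75, 1.61 and 0.71, their dimer partner gene Tfdp1 by 0.64, and Mybl2, the B-Myb that turns on many members, by 0.82 (SE 0.15). Mybl2 had 15.1 and 16.0 CPM in the cKO libraries, against 7.58 and 10.1 CPM in the WT libraries. Rbl2 (p130), the pocket protein of quiescent cells that holds these genes off, had 167 and 151 CPM in the cKO libraries, against 211 and 210 CPM in the WT libraries (log2 fold change -0.40, SE 0.06, adjusted p = 0.00754). It was -0.11 with scaling to pan T cell counts (adjusted p = 0.364). The MuvB genes Lin9, Lin37, Lin52 and Lin54 and the NF-Y genes Nfya, Nfyb and Nfyc had log2 fold changes between -0.10 and 0.12 and did not pass. The E2F genes E2f3, E2f4, E2f5 and E2f6, with 0.22, 0.03, 0.12 and 0.18, did not pass. Nor did the pocket protein genes Rb1 (-0.005) and Rbl1 (0.08). In the list of 10 mitotic entry and exit switches 4 rose (8 with pan T cell scaling), which were Cdc14b (0.86), Cdc25a (0.62), Mastl (1.07) and Wee1 (0.70). The phosphatase subunit gene Ppp2r5c had -0.21, a call that ended when any 1 library was left out (adjusted p 0.0582 to 0.119) and turned to 0.08 with pan T cell scaling.

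Many DNA replication genes and regulators of the G1 phase were higher too. Of 46 replication genes, 31 rose, 1 fell and 14 did not pass, with a median log2 fold change of 0.37, and DESeq2 called 20 higher. Without WT 1 the number called higher was 16, without cKO 1 it was 17 and without cKO 2 it was 20. Rrm2, a subunit of ribonucleotide reductase, rose by 0.85, Uhrf1 by 0.72, Clspn by 0.98 and Tk1 by 0.77. Cdt1, the licensing factor that cells destroy in S phase, had 33.2 and 37.2 CPM in the cKO libraries, against 51.9 and 47.7 CPM in the WT libraries (log2 fold change -0.50, SE 0.08, adjusted p = 0.00793). It was -0.21 with scaling to pan T cell counts (adjusted p = 0.0700). Of 15 G1 cyclins, kinases and inhibitors, 10 rose, among them Cdk6 (0.78), Ccnd1 (0.84), Cdk2 (0.63) and Cdkn1c (1.99). Cdkn1c is an inhibitor gene, and the inhibitor genes Cdkn2a (2.48) and Cdkn2c (0.83) rose as well. Cdkn2a rested on few reads, 49 and 50 in the cKO libraries, against 8 and 10 in the WT libraries. The inhibitor genes Cdkn1a, Cdkn1b and Cdkn2b did not pass. The inhibitor gene Cdkn2d fell by 0.39 on the log2 scale, a call that ended without cKO 1 (adjusted p = 0.0506) and with pan T cell scaling (-0.09, adjusted p = 0.449). The medians of the lists were not tested against each other.

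**Figure D4:**
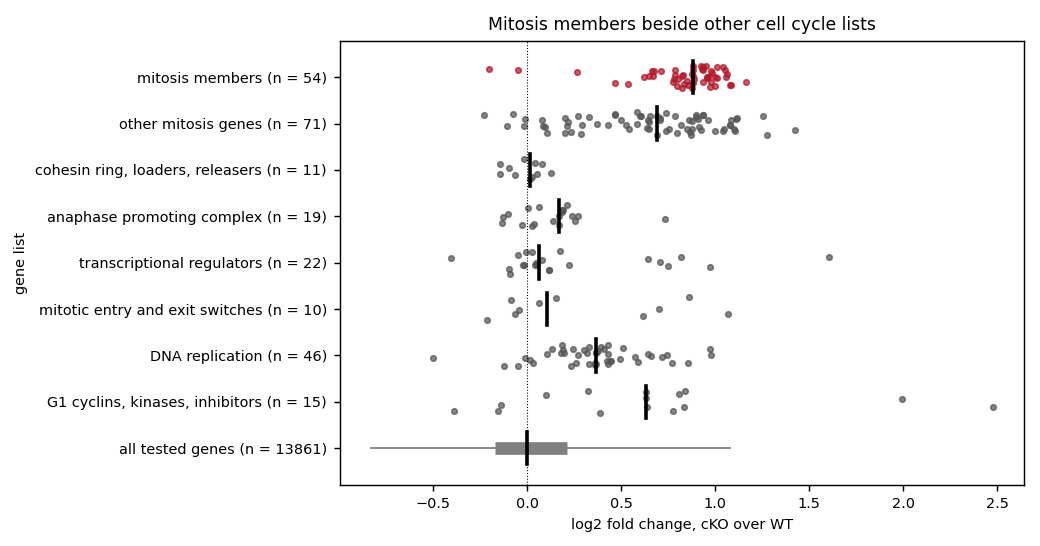
Log2 fold change of cKO over WT for the mitosis members (red), for 7 further lists of cell cycle genes (grey points, 1 per gene), and for all tested genes (thick bar between the quartiles, thin line between percentiles 5 and 95). Black ticks are medians, 0.88 for the members, 0.69 for other mitosis genes, 0.37 for DNA replication, 0.01 for cohesin and 0.0003 for all tested genes.

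Markers of other cells moved with the groups too. The summed level of 11 neutrophil markers was 586 and 1276 CPM in the cKO libraries, against 74.97 and 188 CPM in the WT libraries, and 11 of 11 rose. The summed level of 8 markers of dividing neutrophil precursors was 130 and 197 CPM in the cKO libraries, against 59.6 and 72.2 CPM in the WT libraries, and 6 of 8 rose, Mpo among them with 53.6 and 86.9 CPM in the cKO libraries, against 4.58 and 14.1 CPM in the WT libraries. The precursor gene Gfi1, which did not pass (log2 fold change -0.04), made up much of the WT sum, and the other 7 markers summed to 85.6 and 145 CPM in the cKO libraries, against 8.27 and 23.9 CPM in the WT libraries. Between the cKO libraries both list sums were higher in cKO 2, whereas 51 of 54 members were higher in cKO 1. Between the WT libraries both sums and 52 of 54 members were higher in WT 2.

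The 10 markers of plasmablasts and germinal centre B cells summed to 830 and 840 CPM in the cKO libraries, against 618 and 714 CPM in the WT libraries, with 4 higher, 1 lower and Rgs13 below 1 CPM in every library. The 9 markers of CD8 T and NK cells summed to 268 and 282 CPM in the cKO libraries, against 153 and 184 CPM in the WT libraries, with 8 higher. Basophil and mast cell markers summed to 26.6 and 47.4 CPM in the cKO libraries, against 3.89 and 7.25 CPM in the WT libraries. The 10 erythroid precursor markers summed to 269 and 554 CPM in the cKO libraries, against 695 and 329 CPM in the WT libraries, so the groups overlapped, and Klf1, Epor and Ermap were below 1 CPM in every library. Macrophage markers summed to 1006 and 832 CPM in the cKO libraries, against 618 and 844 CPM in the WT libraries, which overlap, with 1 of 10 higher. Lyz2, the 1 that rose, had 584 and 544 CPM in the cKO libraries, against 261 and 286 CPM in the WT libraries. The other 9 summed to 422 and 288 CPM in the cKO libraries, against 357 and 557 CPM in the WT libraries. Of these 9, 0 passed the test, 8 had negative log2 fold changes and 4 lay lower in cKO without overlap. Over all tested genes, 4280 of 13861 lay lower in cKO without overlap. B cell and dendritic cell markers were also higher by their sums, at 185 and 295 CPM and at 216 and 200 CPM in the cKO libraries, against 149 and 179 CPM and 144 and 152 CPM in the WT libraries. Of the 8 B cell markers 1 was called higher and 7 did not pass. Of the 8 dendritic cell markers 4 were called higher and 4 did not pass. Pan T cell markers summed to 6008 and 6469.9 CPM in the cKO libraries, against 7813 and 7495 CPM in the WT libraries, with 10 of 14 lower. Treg markers summed to 2386 and 2969.7 CPM in the cKO libraries, against 3532 and 2720.5 CPM in the WT libraries, which overlap, with 4 of 8 lower and 1 higher. The part of these cells in the levels of the members was not tested.

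**Figure D5:**
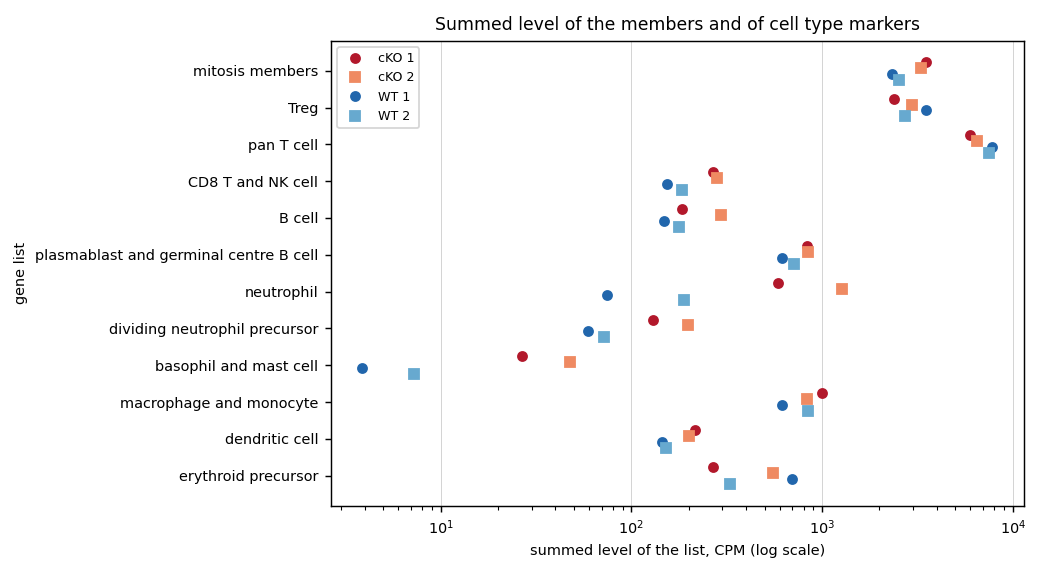
Summed CPM (horizontal, log scale) of the mitosis members and of 11 lists of cell type markers in each library, with circles for replicate 1 and squares for replicate 2, red for cKO and blue for WT. The members sum to 3506 and 3299.6 CPM in cKO and 2317 and 2523 CPM in WT, neutrophil markers to 586 and 1276 CPM in cKO and 74.97 and 188 CPM in WT.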

How the data were processed

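RNA of 4 libraries, 2 cKO and 2 WT, was analysed from 1 table of raw read counts per gene that the authors deposited, and the groups follow the labels' titles. The build was mm10, per the submitters' processing notes. Aligner, counter, annotation release, library kit and strand setting were not given in the sources used here. Depth was 28442416 to 35560491 counts per library, and the lowest count of a member was 64. Precision of the comparison rests on 2 libraries per group and the spread between them. All rows of the table name a gene, and 0 columns belonged to other samples.

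Low genes were removed by filterByExpr (at least 10 counts, total at least 15) and libraries were TMM-scaled. Groups were compared in edgeR 4.0.16 (R 4.3.3) by the 2-sided quasi-likelihood test, glmQLFit and glmQLFTest, with no covariate. P-values of 13861 genes were adjusted by Benjamini-Hochberg at a threshold of 0.05. SE was taken as the size of the log2 fold change over the root of the F statistic. Chi-square per degree of freedom between libraries of a group was 9.47 for cKO and 10.2 for WT, so no library was a duplicate. Exon lengths, places and overlaps came from GENCODE M21 (GRCm38, the assembly of mm10), with exons of all transcripts merged.

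The members and the lists were chosen with earlier results of these data known, so their counts are descriptions and no set test was run. All members were described by role. From each pathway list the 4 genes with the smallest p were named, with each gene of a direction held by 5 or fewer. The cohesin list is the exception, and only Esco1 was named from it. Other genes named, among them MuvB and NF-Y genes, were chosen after their values were seen. Alternatives were RLE, upper-quartile and pan T cell scaling, DESeq2 1.42.0, limma-voom (limma 3.58.1), no filter, at least 5 CPM required in 2 libraries, counts thinned to equal depth, a replicate block, leaving out each library, and thresholds of 0.10 and of 1.5-fold.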

Additional observations from a re-analysis of the deposited data

How the results depend on the processing

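The number of members called higher was 52 in the main comparison and between 49 and 53 in every alternative run, and 49 of the 52 kept their call whichever library was left out. The exceptions were Cenpk, Cenpn and Bub3. The median log2 fold change of the members was between 0.73 and 1.06 when a library was left out. Scaling to pan T cell counts moved it to 1.18 and the median of all tested genes from 0.0003 to 0.30, so the 1.18 includes a shift common to the table. Of the 14 genes used for this scaling, 10 were called lower in the main comparison. Under that scaling Cenpa turned to 0.25 and Smc4 to 0.10, 0 members were called lower, and 0 genes of the pathway lists, against 5 in the main comparison. Over all members and refitted alternatives, the crossed numbers below included, 733 values kept direction and call and 18 kept direction but lost the call. The thresholds of 0.10 and of 1.5-fold are outside this count. Cenpa and Smc4 account for the 2 reversals above, and Cenpa changed sign, with no call, in 2 more.

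Smc4 was the 1 member called lower, and 0 were called lower with a replicate block, at a 1.5-fold minimum or when any library was left out (0 to 0). Genes called over the whole table numbered 4380 (2292 higher, 2088 lower), and 7019 (6215 higher, 804 lower) with pan T cell scaling, 2876 with DESeq2 and 2087 at 1.5-fold. Leaving out cKO 1 gave 2173 and cKO 2 2466, while leaving out WT 1 gave 1869 and WT 2 2747. Of the pathway list genes 114 were higher, 167 with pan T cell scaling, 72 at 1.5-fold and 76 to 98 with a library left out, and 5 lower, 0 at 1.5-fold and 2 to 3 with a library left out. DESeq2 called 20 replication genes higher, against 31. The homology region stood in 18 promoters and in 35 with the window to 50 bases after the start. The cause of these moves was not tested.

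The labels number the replicates alike in both groups, but nothing ties equal numbers together, and with 2 pairs the numbers are not shown to pair samples: deviations of same-numbered libraries correlated at -0.32. With the replicate block 2292 genes were called, 49 members higher, 0 members lower and 3 pathway list genes lower. Crossed numbers, chosen after seeing the data, gave 6713 genes, 52 members higher and 10 pathway list genes lower.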
